A study of Rattus norvegicus with 244 samples.

Results

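Nerve terminals release transmitter when synaptic vesicles fuse with the plasma membrane. In 2 rat brain regions that send axons to the spinal cord, 60 genes were followed here. These are genes of the release machinery and relatives with other roles in membrane traffic. They were chosen by a rule on gene symbols: the synaptotagmins (Syt), synapsins (Syn), syntaxins (Stx) and syntaxin-binding proteins (Stxbp), VAMPs, SNAP proteins, SV2 proteins, synaptophysin (Syp), synaptogyrins (Syngr), complexins (Cplx), Rims genes and every gene whose symbol starts with Rab3. They are 60 of the 10969 genes to which a probe set of the arrays is assigned by a single symbol. Where several probe sets report 1 gene, the brightest was used, and values are log2(signal + 32). After a filter on dim probe sets, 56 of the 60 genes could be compared between regions, 54 could be tested in the raphe and 55 in the cortex. Rab38, Stxbp2, Stx3 and Syt9 did not pass the filter.

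The arrays, of 3 types that carry different probe sets, measured RNA of the raphe, a brainstem region labelled Raphe or Raphe Magno, and of the somatomotor cortex. Each region had 4 naive samples, 12 samples from rats with a laminectomy and no cord injury (called sham, 2 per time, taken 4 h, 24 h, 7 d, 14 d or 28 d and also 3 months later) and 24 samples from rats with a moderate spinal cord injury (4 per time). Not every sample was on every type, with 11 raphe sham samples on type A and 3 naive raphe samples on type C. A few further sham samples at 30 min or 72 h had no injured counterpart and entered no comparison. The labels give no strain, sex or age, do not say how the cord was injured, and do not say whether samples are separate animals, so p-values measure the spread between these samples, which may be technical.

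Fusion is driven by SNARE proteins: a VAMP on the vesicle zips together with a syntaxin and a SNAP protein on the target membrane. Syntaxin-binding proteins act on the syntaxin, complexins clamp and then aid the partly assembled complex, and synaptotagmins, many of which bind calcium, couple fusion to the calcium that enters with an action potential. Rab3 and Rims dock the vesicle at the active zone, while synapsins tether the reserve of vesicles. The raphe magnus sends serotonin and other fibres down to the cord, and the somatomotor cortex holds the corticospinal neurons.

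A total of 5 samples stood apart, or went against their labels, by measures that did not use these genes. On a score from 100 other probe sets a side that is set to 0 in naive cortex and 1 in naive raphe, raphe sham replicate 1 at 3 months scored 0.036 and cortex sham replicate 1 at 3 months 0.679, whereas the samples not doubted lay between 0.916 and 1.01 in raphe and between −0.030 and 0.037 in cortex. Raphe injured replicate 1 at 4 h had an actin 3′ to 5′ ratio of 93.3, against 1.27 to 2.72 in the raphe samples not doubted. Cortex sham replicate 2 at 14 d and cortex injured replicate 2 at 7 d had a raised 5th percentile of signal (66.1 and 35.7, against 11.1 to 26.1). Calls between regions and over the times that change without these 5 samples are given both ways. In the naive samples the labelled regions matched their markers. All 5 tested markers of cortical excitatory neurons were lower in raphe (log2 differences of −5.75 for Nrgn and −5.83 for Cck). Of 5 brainstem markers, 3 were higher, among them Prph (3.89) and Slc17a6 (3.86). Only 4 of the 5 cortical markers passed the filter in raphe, and 4 of the 5 brainstem markers in cortex. A marker that passed through 1 region alone leans that way by the filter and supports nothing.

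Some of these genes were higher in raphe and more were higher in cortex, often within 1 family. Differences are raphe minus cortex throughout. In naive samples, 16 of 56 genes passed the threshold (limma, adjusted p under 0.05), 5 higher and 11 lower in raphe. The adjustment ran over all tested probe sets of the array types together. Of all 9409 genes tested, 16.0 percent passed in either direction, 8.61 percent higher and 7.34 percent lower. The same contrast in sham samples called 27 genes (9 higher, 18 lower) against 34.8 percent of all genes (19.9 higher, 15.0 lower), and in injured samples 36 (12 higher, 24 lower) against 51.9 percent (28.9 higher, 23.0 lower). In percent, 28.6, 48.2 and 64.3 of the 56 genes were called. These are separate sets of samples, and 14 genes were called in the same direction in each of the 3: Vamp1, Vamp3, Stx12, Cplx1 and Syt3 were higher in raphe, and Stx1a, Cplx2, Syt1, Syt5, Syt12, Syt17, Syn1, Sv2b and Rims1 were lower. Of the genes counted here, Syt1 and Syt10 passed the filter only through cortex and Syt2 only through raphe, so their calls lean that way by the filter and support nothing. None of the 56 was called in opposite directions between sets. The median difference of the 56 genes was −0.13 in naive, −0.03 in sham and −0.17 in injured samples, beside 0.04, 0.03 and 0.02 for all genes. Without the doubted samples, 20, 29 and 36 of the 56 genes were called, beside 23.1, 42.1 and 57.2 percent of all genes, and 17 were called in all 3 sets. How many of all genes were called in all 3 sets was not counted, so the 14 and the 17 have no baseline.

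**Figure D1:**
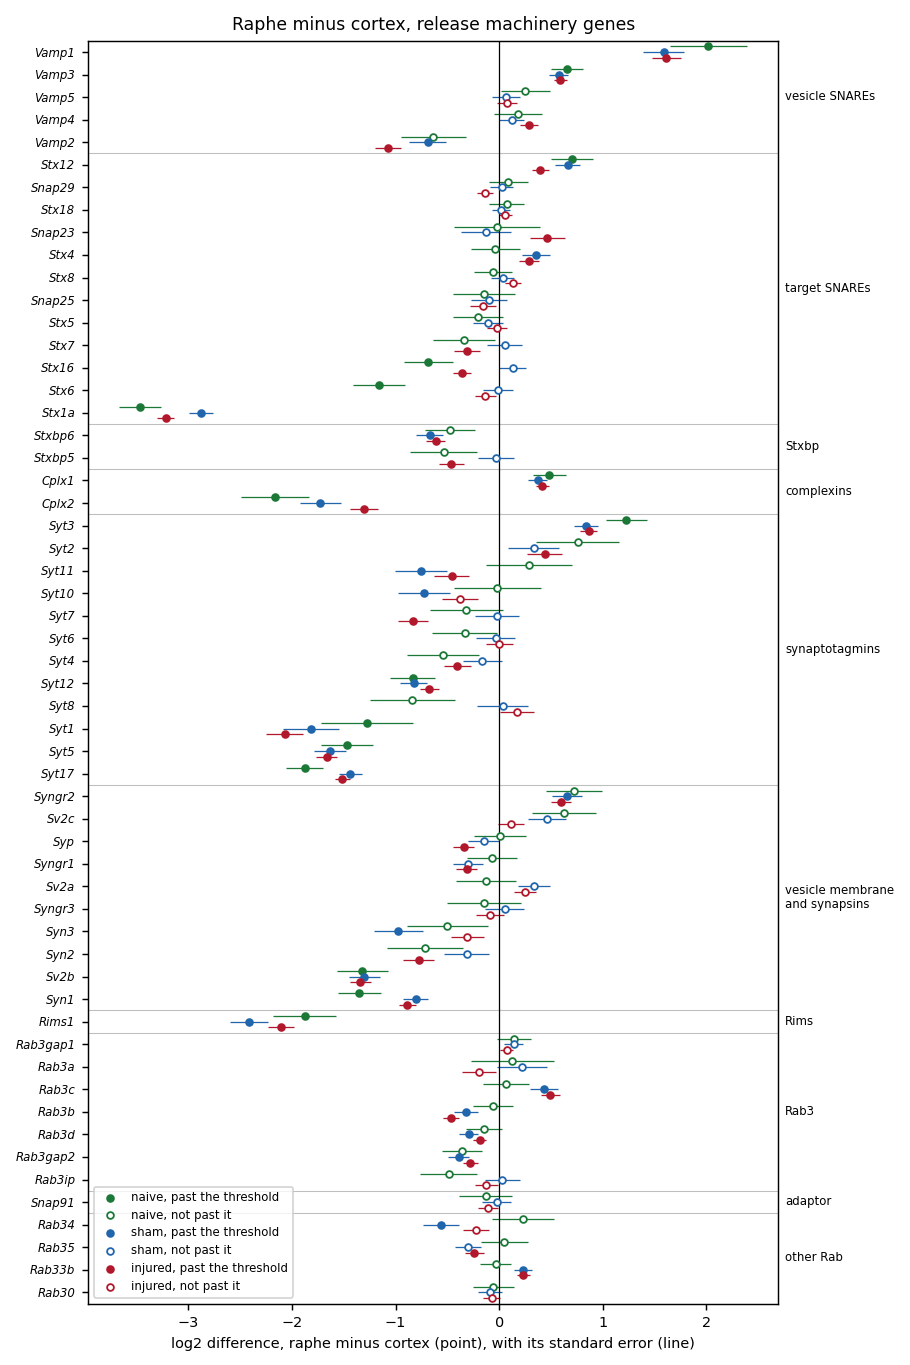
Difference between raphe and cortex in log2(signal + 32) for the 56 genes tested, grouped by role. Lines are the standard error from limma, and filled points passed the adjusted p threshold. Green is naive, blue sham and red injured samples. Stx1a lies farthest to the left in all 3 sets and Vamp1 farthest to the right, while Snap25 and Rab3a stay near 0 and pass in none.

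Among the vesicle SNAREs, Vamp1 was the raphe form and Vamp2 leaned to cortex. Vamp1, the VAMP typical of brainstem and spinal neurons, read 14.75, 14.92 and 14.70 in the 3 naive raphe samples and 12.56, 12.72, 13.07 and 12.74 in naive cortex, so no raphe value came near a cortex value. The difference was 2.02 ± 0.37 (log2 difference ± SE, adjusted p = 4.25e-05), a 4.05-fold higher signal in raphe. It was 1.59 ± 0.20 in sham and 1.61 ± 0.14 in injured samples, and all 5 probe sets for Vamp1 were higher in naive raphe, by 1.15 to 2.02. Without the doubted samples, the lowest sham raphe value was 14.17 and the highest sham cortex value 12.9997, and in injured samples these were 14.20 and 12.92.

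Vamp2, the main VAMP of forebrain terminals, read 13.17, 13.18, 13.39 and 13.49 in naive raphe and 13.78, 13.69, 14.16 and 14.14 in naive cortex. The naive ranges did not overlap, yet the difference of −0.64 ± 0.31 did not pass (adjusted p = 0.185); without the doubted samples it did (adjusted p = 0.0173). It passed in sham (−0.69 ± 0.18) and in injured samples (−1.07 ± 0.13), where 24 of 24 raphe values lay below the cortex mean of the same time. The probe set shown is marked by the array's maker as one that may read related sequences, and a further type A probe set gave −0.74 ± 0.24 (adjusted p = 0.0291) in naive samples. Vamp3, a VAMP of recycling endosomes found in most cells, was higher in naive raphe by 0.65 ± 0.15 (adjusted p = 0.00113) and by 0.57 and 0.59 in sham and injured samples. Vamp4, which serves traffic between endosomes and the Golgi, was called in injured samples alone (0.29 ± 0.09), where its dimmer second probe set read −0.10, not called. Vamp5, a VAMP of muscle and other tissues, was called in none of the 3 sets on its brightest probe set, but a dimmer one was called higher in naive (2.16, adjusted p = 0.00186) and injured raphe (0.78), and another in injured raphe (0.42).

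Among the 12 target SNAREs tested, Stx1a stood far from the others. Stx1a, a syntaxin of the neuronal plasma membrane, read 9.50, 9.92, 9.66 and 9.60 in naive raphe and 13.30, 12.98, 13.04 and 13.24 in naive cortex. Every cortex value was above every raphe value by more than 3 log2 units. The difference was −3.47 ± 0.20 (adjusted p = 2.1e-21), which is 11.1-fold less signal in raphe, with a 95 percent interval from −3.87 to −3.07. In sham samples raphe read 9.76 to 10.41 (median 10.14) and cortex 11.30 to 13.32 (median 13.08), and the 11.30 came from the doubted cortex sham replicate at 3 months. In injured samples raphe read 9.26 to 10.97 (median 10.00), the highest being the doubted replicate at 4 h, and cortex 12.82 to 13.72 (median 13.21). The differences were −2.88 ± 0.12 and −3.22 ± 0.08, and the second probe set for Stx1a gave −3.14 ± 0.22 in naive samples.

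Snap25, the plasma membrane partner of Stx1a, showed no such step on its brightest probe set. It read 14.86, 14.98, 15.14 and 14.66 in naive raphe and 15.00, 15.15, 15.10 and 14.97 in naive cortex, with overlapping ranges. The difference of −0.14 ± 0.30 had a 95 percent interval from −0.74 to 0.46 and passed in none of the 3 sets. Its other 4 probe sets, all of type A, read −0.72 to −1.42 in naive samples, and 1 of them passed (−1.42 ± 0.43, adjusted p = 0.0159), and all 4 were called lower in sham (−0.83 to −2.24) and injured raphe (−1.03 to −2.70), so the probe sets of Snap25 disagree. Stx12, an endosomal syntaxin, was higher in naive raphe by 0.70 ± 0.20 (adjusted p = 0.0102) and by 0.66 and 0.40 in the other sets, though its dimmer second probe set gave −0.66 ± 0.46 in naive samples, not called, and −0.83 in injured samples, called lower, so the probe sets of Stx12 disagree. Stx16, a Golgi syntaxin, was lower in naive (−0.69 ± 0.24, adjusted p = 0.0402) and injured raphe (−0.36 ± 0.09) and read 0.13 ± 0.13 in sham. Stx4, a plasma membrane syntaxin of most cells, was higher in sham (0.36 ± 0.14) and injured raphe (0.29 ± 0.10). In injured samples alone, Snap23, the SNAP of non-neuronal cells, was higher (0.46 ± 0.17) and the endosomal Stx7 lower (−0.31 ± 0.12). Snap23 lay below the 90th percentile of the control probes in naive samples, and its second probe set read −0.23 in injured samples, not called. The second Stx7 probe set was called lower in sham (−0.93) and injured raphe (−0.44). Snap29, Stx5, Stx8 and Stx18, which serve internal membranes, were called in no set on their brightest probe sets, while a dimmer one of Stx5 was called lower in injured raphe (−0.43).

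Stx6, a syntaxin of the Golgi and endosomes, differed in naive samples but not in the operated ones. It read 9.43, 8.96, 9.22 and 10.23 in naive raphe and 10.53, 10.92, 10.25 and 10.77 in naive cortex (−1.16 ± 0.25, adjusted p = 0.000514). In sham samples the difference was −0.01 ± 0.15 and in injured samples −0.13 ± 0.10, neither called. Its dimmer second probe set went the other way round: it was not called in naive samples (−0.55 ± 0.25, adjusted p = 0.145) and was called lower in sham (−0.77) and injured raphe (−0.66). In naive samples all 3 tested blood markers were also higher in raphe, and their part in the Stx6 difference was not tested.

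**Figure D2:**
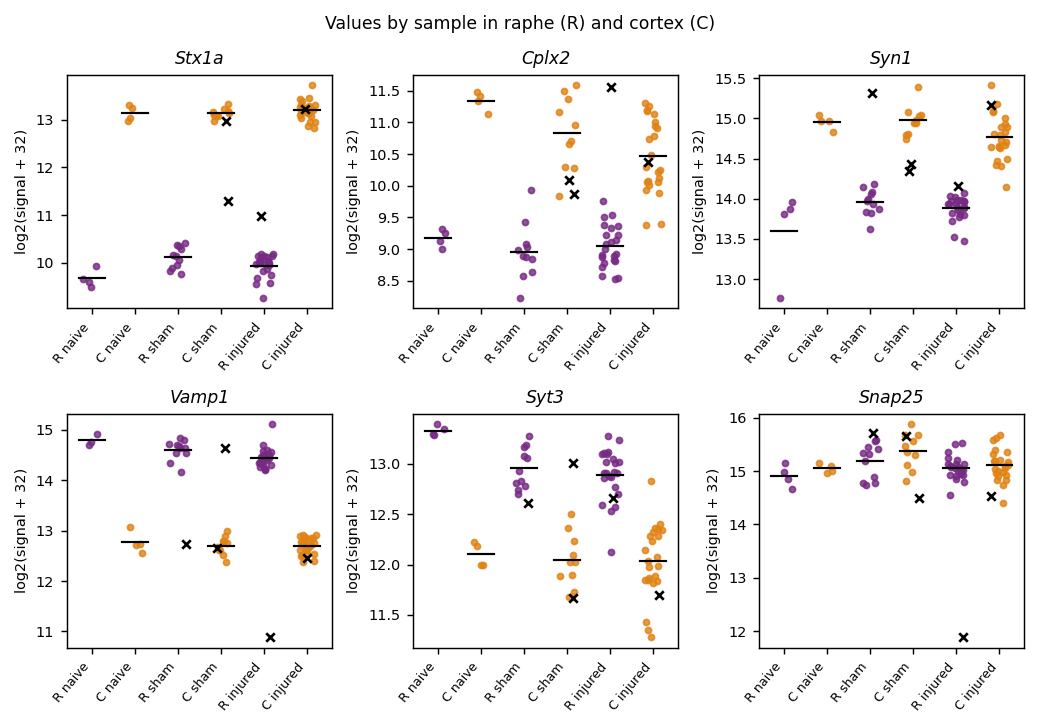
Values of 6 genes in each sample, as log2(signal + 32), for naive, sham and injured raphe (R, purple) and cortex (C, orange); bars are group means without the 5 doubted samples, which are drawn as black crosses. The crosses of the 3 month sham samples lie among the values of the other region for Vamp1, and the cross of injured raphe at 4 h is the lowest value of Vamp1 (10.89) and of Snap25 (11.89).

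The stretch before the start site is shown for the 4 genes with the largest rises and falls between naive regions among the 10 of the 14 that have an entry in the RefSeq promoter table (build GRCr8). Each sequence is the 250 bases before the annotated start, on the gene's strand, and capitals mark the GC box (GGGCGG, both strands) and the cAMP response element (TGACGTCA, the same on both strands).
Stx1a, lower in raphe, at chr12:27306472-27306721, minus strand: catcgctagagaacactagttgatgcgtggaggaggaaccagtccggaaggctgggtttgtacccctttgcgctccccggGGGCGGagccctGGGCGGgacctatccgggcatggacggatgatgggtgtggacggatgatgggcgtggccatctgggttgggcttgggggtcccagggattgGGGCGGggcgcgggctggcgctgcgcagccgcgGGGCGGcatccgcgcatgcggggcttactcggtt
Cplx2, lower in raphe, at chr17:10236754-10237003, minus strand: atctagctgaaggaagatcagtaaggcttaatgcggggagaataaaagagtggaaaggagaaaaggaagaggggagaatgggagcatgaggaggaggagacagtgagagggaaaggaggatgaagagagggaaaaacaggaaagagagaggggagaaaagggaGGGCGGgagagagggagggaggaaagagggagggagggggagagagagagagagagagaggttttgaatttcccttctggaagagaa
Vamp1, higher in raphe, at chr4:159698644-159698893, plus strand: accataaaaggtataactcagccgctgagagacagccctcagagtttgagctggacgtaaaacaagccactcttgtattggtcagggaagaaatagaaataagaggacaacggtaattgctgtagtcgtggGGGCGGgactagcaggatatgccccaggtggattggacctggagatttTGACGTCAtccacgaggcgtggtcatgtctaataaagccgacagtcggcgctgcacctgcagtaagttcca
Syt3, higher in raphe, at chr1:104017874-104018123, plus strand: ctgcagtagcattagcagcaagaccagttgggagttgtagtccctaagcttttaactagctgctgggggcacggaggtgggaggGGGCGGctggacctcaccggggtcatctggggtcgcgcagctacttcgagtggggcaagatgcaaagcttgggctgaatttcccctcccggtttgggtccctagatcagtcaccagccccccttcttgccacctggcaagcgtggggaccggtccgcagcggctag
The Stx1a stretch holds 4 GC boxes and the other 3 stretches 1 each, and Vamp1 alone of the 4 holds a cAMP response element. A GC box was found before 31 of the 48 members with an entry (64.6 percent) and before 32.4 percent of all 27457 promoters of this length, whose median GC content was 52 percent against 63 percent in the members. The cAMP response element was found before 2 of the 48, Vamp1 and Syn1, and before 1.70 percent of all. A TATA box (TATAAA, both strands) was found before none of the 48 and before 13.1 percent of all. Genes higher and genes lower in raphe both held GC boxes (4 of 4 and 4 of 6), and such a match describes the letters only.

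The complexins went in opposite directions. Cplx2, the complexin of many excitatory terminals of the forebrain, read 9.002, 9.25, 9.13 and 9.32 in naive raphe and 11.34, 11.47, 11.13 and 11.42 in naive cortex, with no overlap. It was lower in raphe by 2.16 on the log2 scale (difference −2.16 ± 0.33, adjusted p = 9.04e-07), 4.48-fold, and by −1.73 ± 0.20 and −1.31 ± 0.13 in sham and injured samples. Cplx1 read 15.71, 15.25, 15.70 and 15.69 in naive raphe and 15.06, 15.06, 15.03 and 15.27 in naive cortex, where the lowest raphe value was close to the highest cortex value. Its difference was small (0.48 ± 0.16, adjusted p = 0.0258) and fell to 0.20 (adjusted p = 0.236) under quantile normalization, which ends the call in naive samples, as did leaving out 1 sample in 6 of 8 fits. It was 0.37 ± 0.09 in sham and 0.41 ± 0.06 in injured samples, and a second Cplx1 probe set gave 0.94 ± 0.28. Of the syntaxin-binding genes, Stxbp6 (amisyn) was lower in sham (−0.67 ± 0.13) and injured raphe (−0.61 ± 0.09), and Stxbp5 (tomosyn), which competes with VAMP for the syntaxin, in injured raphe (−0.46 ± 0.12). In naive samples they read −0.47 ± 0.24 and −0.53 ± 0.32, not past the threshold, though Stxbp6 passed without the doubted samples (adjusted p = 0.0290).

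The synaptotagmins, with 12 of 13 tested, showed 1 gene higher and 4 lower in naive raphe, 1 and 6 in sham, and 2 and 7 in injured samples. Syt3, a calcium-binding synaptotagmin, read 13.30, 13.29, 13.34 and 13.39 in naive raphe and 11.996, 12.18, 12.23 and 11.998 in naive cortex. The difference of 1.23 ± 0.20 (adjusted p = 4.18e-06) fell to 0.84 ± 0.12 in sham and 0.86 ± 0.08 in injured samples, and its second probe set gave 0.76 ± 0.21 in naive samples. The 4 naive raphe values lay above all 12 sham raphe values, which read 12.61 to 13.28. Syt17 read 9.28, 9.78, 9.52 and 9.68 in naive raphe and 11.50, 11.38, 11.41 and 11.47 in naive cortex (−1.88 ± 0.18, adjusted p = 1.81e-12). It was lower by −1.44 ± 0.11 in sham and −1.52 ± 0.07 in injured raphe, and its ranges did not overlap in any of the 3 sets without the doubted samples. Syt5, a calcium sensor of secretory vesicles, read 8.95, 9.86, 9.74 and 10.05 in naive raphe and 10.996, 10.94, 11.51 and 11.04 in naive cortex (−1.47 ± 0.25, adjusted p = 8.42e-06), and −1.63 and −1.67 in the other sets.

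Syt12, which lacks calcium binding, was lower in raphe by −0.84 ± 0.22 (adjusted p = 0.00442), −0.83 ± 0.13 and −0.68 ± 0.09. Syt1, the main sensor of fast release in the forebrain, was read by a probe set whose naive means of 6.12 and 7.39 lie below the 90th percentile of the antisense control probes (8.27 and 8.28). It passed the filter through its cortex values alone, so its difference of −1.27 ± 0.44 (adjusted p = 0.0421) supports nothing, and it lost the call under 4 other settings of the processing. Syt2, the fast sensor typical of brainstem, passed the filter through its raphe values and read 0.76 ± 0.40 in naive samples (adjusted p = 0.235), and was called in injured samples (0.44 ± 0.17); both naive means lie below the 90th percentile of the control probes, and the choice by filter leaves this call without support. Syt4 (−0.41 ± 0.13) and Syt7 (−0.83 ± 0.14) were lower in injured raphe, and Syt11 in sham (−0.76 ± 0.25) and injured raphe (−0.46 ± 0.17). Both naive means of Syt7 lie below the 90th percentile of the control probes. With the doubted samples left out, Syt4 was also called in sham raphe (−0.53 ± 0.13), where 3 dimmer Syt4 probe sets were called with all samples, and Syt11 lost its call in injured raphe (−0.37, adjusted p = 0.0510). Syt10 passed the filter through cortex alone, and its call in sham raphe (−0.73 ± 0.25), lost without the doubted samples (−0.56, adjusted p = 0.0548), supports nothing; nor does the call in injured raphe that appeared without them (−0.40, adjusted p = 0.0256). Syt6 and Syt8 were called in no set.

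Of the 10 genes for vesicle membrane proteins and synapsins, Syn1 and Sv2b were lower in naive raphe and none was higher. Syn1, which tethers vesicles to actin, read 13.95, 13.87, 12.77 and 13.81 in naive raphe and 14.97, 14.83, 14.96 and 15.04 in naive cortex. All 4 raphe values lay below cortex, with 1 of them further down, and the difference was −1.35 ± 0.21 (adjusted p = 8.68e-07), then −0.81 ± 0.12 in sham and −0.89 ± 0.08 in injured samples. A type A probe set gave −0.99 ± 0.26 in naive samples. Syn2 read −0.71 ± 0.37 in naive samples (adjusted p = 0.212, and 0.0240 without the doubted samples) and passed in injured ones (−0.78 ± 0.15), while 2 further Syn2 probe sets passed in naive samples at −1.40 ± 0.33 and −0.81 ± 0.26. Syn3, with naive means below the 90th percentile of the control probes, was called in sham samples (−0.98 ± 0.24).

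Sv2b, an SV2 form abundant in forebrain excitatory terminals, read 11.45, 11.57, 12.05 and 11.69 in naive raphe and 12.95, 13.30, 13.04 and 12.77 in naive cortex. The difference stayed close over the 3 sets, at −1.32 ± 0.25 (adjusted p = 4.11e-05), −1.30 ± 0.15 and −1.34 ± 0.10. Sv2a, the SV2 form of nearly all terminals, gave −0.13 ± 0.29 in naive samples, with an interval from −0.71 to 0.46, and was called in none of the sets with all samples, though its second probe set was called higher in sham raphe (0.32). Sv2c, the form of the brainstem and basal ganglia, read 0.63 ± 0.31 (adjusted p = 0.193), 0.46 ± 0.19 and 0.12 ± 0.13, not called. Both were called higher in sham raphe without the doubted samples, Sv2a by 0.40 ± 0.12 and Sv2c by 0.67 ± 0.18. Syngr2, a synaptogyrin of non-neuronal cells, was higher in sham (0.65 ± 0.14) and injured raphe (0.60 ± 0.10) and read 0.72 ± 0.27 in naive samples (adjusted p = 0.06, and 0.00759 without the doubted samples). Syp, the standard marker of vesicle number, read 12.92, 12.74, 13.14 and 12.996 in naive raphe and 13.01, 12.77, 12.995 and 12.99 in naive cortex. Its naive difference was 0.01 ± 0.25 with an interval from −0.49 to 0.51, and it was lower in injured raphe by −0.34 ± 0.10. Without the doubted samples, Syp still ran from 10.25 to 13.31 in injured raphe, against 12.63 to 13.35 in injured cortex. Syngr1 was lower in injured raphe by −0.32 ± 0.10, and its 2 dimmer probe sets disagree with each other in sham samples (−0.72 and 1.00, both called). Syngr3 was called in no set.

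At the active zone, Rims1, the scaffold that binds Rab3 and calcium channels, read 6.81, 6.78, 6.90 and 7.28 in naive raphe and 9.48, 8.49, 8.76 and 8.56 in naive cortex. The raphe values lay below the 90th percentile of the control probes (8.27), so the difference of −1.88 ± 0.30 (adjusted p = 3.49e-06) is between a cortex signal and one near background. It was −2.42 ± 0.18 in sham and −2.11 ± 0.12 in injured samples. Its partner Rab3a, the main Rab of synaptic vesicles, read 12.69, 12.66, 12.77 and 12.98 in naive raphe and 12.62, 12.72, 12.57 and 12.69 in naive cortex, a difference of 0.12 ± 0.40 with an interval from −0.68 to 0.93. Of the 7 Rab3 genes and regulators none was called in naive samples. In sham samples Rab3c, with naive means below the 90th percentile of the control probes, was higher in raphe (0.43 ± 0.13). Lower in sham raphe were Rab3b (−0.32 ± 0.12), Rab3d (−0.30 ± 0.09) and Rab3gap2 (−0.39 ± 0.10). The same 4 genes were called with the same signs in injured samples, at 0.49, −0.47, −0.19 and −0.28, and Rab3gap1 and Rab3ip were called in no set on their brightest probe sets. A dimmer one of Rab3gap1 was called lower in sham raphe (−0.67). The dimmer tested one of Rab3gap2 read −0.13 in sham and −0.10 in injured raphe, not called. Snap91, an adaptor for vesicle retrieval, was called in no set, while its dimmer probe set was called lower in injured raphe (−0.95). The prefix also takes in 5 Rabs with other roles in traffic. Rab33b was higher in sham and injured raphe (0.23 each), but in sham samples it read 0.11 and lost the call without the doubted samples (adjusted p = 0.222). Its dimmer tested probe set read 0.02 in sham and 0.03 in injured samples, not called. Rab34 was lower in sham raphe (−0.56 ± 0.17), where its dimmer tested probe sets read −0.08 and −0.15, not called. Rab35 was lower in injured raphe (−0.24 ± 0.09) and, without the doubted samples, in sham raphe (−0.40 ± 0.14), and Rab30 was called in no set.

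Where the doubted samples are left out, the raphe and cortex values did not overlap in naive, sham or injured samples for 7 genes, Vamp1, Stx1a, Sv2b, Syn1, Syt17, Syt5 and Rims1. How many of all genes separate in this way was not counted, so the 7 have no baseline. Of the 32 genes with more than 1 tested probe set, 21 had all of them on the same side of 0 in naive samples, and none had probe sets called in both directions there. In bulk RNA, fewer cells of a type and less RNA per cell cannot be told apart. Markers of cell types differed along with these genes: the 6 measured cortical excitatory markers summed to 2594 to 3095 signal units in naive raphe and 47691 to 50172 in naive cortex, 6 of 8 oligodendrocyte markers were higher in naive raphe, and of 14 general neuron markers 3 were higher and 3 lower. Their part in the differences above was not tested.

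Other genes of the release pathway, from a fixed list of 53 of which 40 were tested, also split between regions. In naive samples 6 were higher and 5 lower in raphe, with a median difference of 0.05. Those with the smallest p were Sncg, a synuclein (6.62 ± 0.49, against a cortex mean of 6.19 that lies below the 90th percentile of the control probes), Cadps2, a priming factor of dense-core vesicles (−1.94 ± 0.22), the vesicular glutamate transporter Slc17a6 (3.86 ± 0.43), the vesicular acetylcholine transporter Slc18a3 (2.14 ± 0.27), the vesicular GABA transporter Slc32a1 (1.19 ± 0.16) and the calcium channel gene Cacna1b (−0.94 ± 0.18). In sham samples 10 were higher and 11 lower, and in injured samples 10 and 19, with medians of −0.11 and −0.18. The shares of all genes called in these sets were those given above. Of the 40 genes, 38 passed the filter in raphe and 39 in cortex. Genes that passed through 1 region alone lean that way by the filter, and their calls support nothing. Whether Sncg is among them is not given here.

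Fewer of these genes were called for spinal cord injury than for region. Averaged over the 6 times, injured minus sham, limma called 0 of 54 genes in the raphe, where 0.847 percent of all genes were called, and 0 of 55 in the cortex, where 0.0548 percent were. At an unadjusted p under 0.05 there were 7 (12.96 percent) in raphe and 9 (16.4 percent) in cortex, beside 14.8 and 10.8 percent of all genes. The median difference was −0.04 in raphe and 0.004 in cortex, beside −0.005 and 0.004 for all genes. A test of whether the injury difference itself differs between regions called 0 of 56 genes (6, or 10.7 percent, at an unadjusted p under 0.05, beside 8.24 percent of all genes), against 0.0319 percent of all genes. The smallest p values of that test were those of Syt7 (−0.81 ± 0.26, adjusted p = 0.349), Stx16 (−0.49 ± 0.16) and Stx1a (−0.34 ± 0.15). Of these, Syt7 had naive means below the 90th percentile of the control probes.

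In raphe the nearest to the threshold were Vamp4 (0.38 ± 0.10, adjusted p = 0.0661), Stx16 (−0.32 ± 0.10, adjusted p = 0.104) and Sv2c (−0.34 ± 0.11, adjusted p = 0.121). Without the doubted samples, among them the injured raphe replicate at 4 h with the actin ratio of 93.3, 2 of 54 genes passed beside 4.89 percent of all genes: Stx4 fell (−0.34 ± 0.07, adjusted p = 0.0057) and Vamp4 rose (0.40 ± 0.09, adjusted p = 0.0152). In cortex the nearest were Stxbp5 (0.52 ± 0.18, adjusted p = 0.251, and 0.31 ± 0.17 without the doubted samples), Stx7 (0.35 ± 0.12) and Syn2 (0.20 ± 0.08). For the core genes in cortex, Syp read 0.004 with a 95 percent interval from −0.14 to 0.15, Vamp2 0.13 (−0.05 to 0.32) and Snap25 −0.24 (−0.43 to −0.05). Stx1a in cortex read 0.23 (0.03 to 0.44), and 0.09 (−0.05 to 0.22) without the doubted samples; leaving out sham replicate 1 at 3 months alone gave 0.08, and leaving out replicate 2 gave 0.38 (adjusted p = 0.0023). In raphe, Syp read −0.19 (−0.54 to 0.16) and Vamp1 −0.14 (−0.59 to 0.31). Leaving out injured raphe replicate 4 at 7 d, not among the doubted samples, gave −0.08 for Syp. For Vamp1, leaving out the doubted raphe sham replicate 1 at 3 months gave −0.30, and leaving out replicate 2 gave 0.007. Snap25 in raphe read −0.30 (−0.68 to 0.08) with all samples and −0.16 (−0.32 to 0.004) without the doubted ones. With all samples, the differences of the 15 core genes tested in each region ran from −0.34 (Sv2c) to 0.37 (Rims1) in raphe and from −0.24 (Snap25) to 0.23 (Stx1a) in cortex. Of the other release pathway genes, limma called 0 of 38 in raphe and 0 of 39 in cortex.

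**Figure D3:**
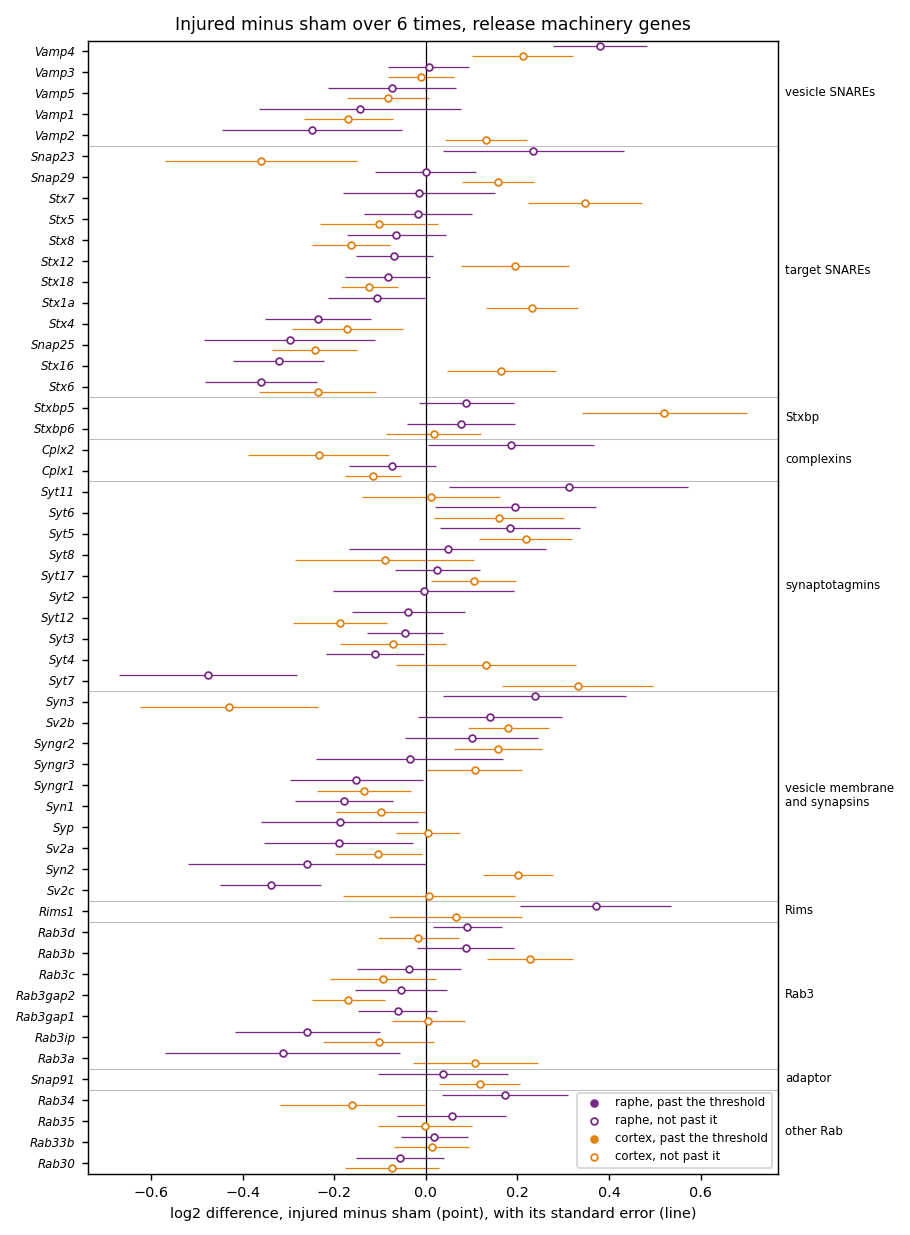
Injured minus sham difference in log2(signal + 32), averaged over 6 times, for the genes of the set tested in raphe (purple) and cortex (orange). Lines are the standard error from limma. All points are open, since none passed the adjusted p threshold, and they lie between −0.48 and 0.52.

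At single times after injury, no gene passed in raphe with all samples (limma, with 9 genes at an unadjusted p under 0.05 at 4 h, 3 at 24 h, 8 at 7 d, 3 at 14 d, 1 at 28 d and 5 at 3 months). The shares of all genes at that unadjusted p were 13.8, 4.03, 12.4, 6.33, 6.77 and 10.7 percent, beside 16.7, 5.56, 14.8, 5.56, 1.85 and 9.26 percent of the 54. All genes were called at 0.130, 0.0109, 0.792, 0.0217, 0 and 0.619 percent at these times. Without the doubted samples, 6 of 54 genes passed at 7 d, where 4.85 percent of all genes did, 1 higher and 5 lower, and Snap91 rose at 4 h (0.60 ± 0.14, adjusted p = 0.0451), beside 0.579 percent. Neither doubted raphe sample is from 7 d: the 7 d differences are the same in both fits, and the standard errors are smaller without the doubted samples (0.28 and 0.15 for Stx4).

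Stx4 in raphe at 7 d read 11.69 and 11.31 in sham and 10.33, 10.49, 10.60 and 10.45 in injured samples (−1.03, adjusted p = 0.0736 with all samples and 0.000407 without the doubted ones). The 4 injured values lay below all 12 sham values of raphe, which began at 10.75, and below the naive samples, which read 10.88 to 11.39. Vamp4 read 9.74 and 9.87 in sham and 10.61, 10.43, 10.59 and 10.53 in injured samples (0.73, adjusted p = 0.176 and 0.0487), with all 4 injured values above the naive values of 9.75 to 10.03. Stx6, on its brightest probe set, read 11.14 and 10.74 in sham and 10.14, 10.20, 10.20 and 10.03 in injured samples (−0.80, adjusted p = 0.0448 without the doubted samples), and a difference of −0.90 at 14 d was not called (adjusted p = 0.446 and 0.0950). The injured Stx6 values at 7 d lay within the naive range of 8.96 to 10.23, and both sham values lay above it.

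Stx16 in raphe at 7 d read 10.78 and 11.36 in sham and 10.16, 10.36, 10.13 and 9.98 in injured samples (−0.91, adjusted p = 0.0649 and 0.0214). The naive range of Stx16, 10.07 to 10.77, holds the injured values but for the lowest, and both sham values lay above it. Snap25 read 15.46 and 15.57 in sham and 14.55, 15.07, 15.07 and 14.92 in injured samples (−0.61, adjusted p = 0.0446 without the doubted samples), within the naive range of 14.66 to 15.14 but for the lowest. Syt12 read 8.77 and 8.50 in sham and 8.31, 8.01, 8.08 and 7.93 in injured samples (−0.55, adjusted p = 0.0438 without the doubted samples), and 8.55 to 8.76 in naive samples. In these 6 genes the sham and injured values did not overlap at 7 d. The 6 were taken because they passed at that time without the doubted samples. How many of all genes separate in this way was not counted, so the 6 have no baseline. For Stx4, Stx6, Snap25 and Syt12, the highest sham raphe value without the doubted samples was a 7 d value. With all samples, the nearest at 4 h were Cplx2 (1.24), Sv2b (1.06) and Rab3a (−1.61). There 1 of the 4 injured samples is doubted (0.66, 0.62 and −0.65 without it). At 24 h they were Sv2c (−0.72), Vamp4 (0.67) and Syt11 (1.29), and at 14 d Stx16 (−0.75), Stx6 (−0.90) and Rab3gap2 (0.55). At 28 d they were Syt8 (1.02), Stx4 (−0.57) and Syn3 (0.71), and at 3 months Syn1 (−0.88), Syt6 (1.43) and Syt4 (−0.61). Naive means of Syt6, Syt8 and Syn3 lie below the 90th percentile of the control probes. The injured time course in raphe, an F test over the 6 times, called 0 genes with all samples (13, or 24.1 percent, at an unadjusted p under 0.05, beside 17.1 percent of all genes), against 0.467 percent of all genes and with Vamp4 nearest (adjusted p = 0.0816), and it called Stx4, Vamp4 and Stx6 without the doubted samples, against 4.11 percent.

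**Figure D4:**
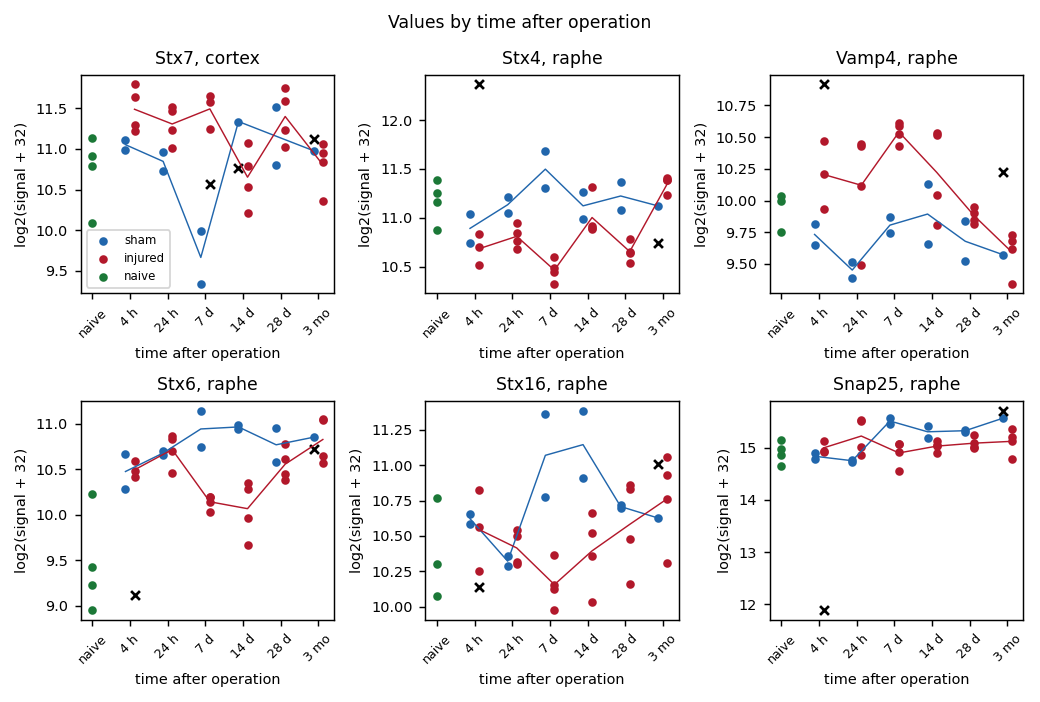
Values of Stx7 in cortex and of Stx4, Vamp4, Stx6, Stx16 and Snap25 in raphe, as log2(signal + 32), in naive samples (green) and by time after operation in sham (blue, 2 a time) and injured samples (red, 4 a time); lines join means without the doubted samples, drawn as crosses. The 2 sham values of Stx7 at 7 d, 9.99 and 9.35, lie below those of the other times, and Vamp4 in injured raphe at 7 d sits between 10.43 and 10.61.

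In cortex 3 genes passed at single times. Stx7, a syntaxin of late endosomes, differed at 7 d (1.59 ± 0.30, adjusted p = 0.0160, with 0.296 percent of all genes called), and without the doubted samples by 1.82 ± 0.30 (adjusted p = 0.00286, with 0.375 percent of all genes called). It read 9.99 and 9.35 in sham and 11.65, 10.57, 11.58 and 11.24 in injured samples, with no overlap. Sham cortex at the other 5 times read 10.73 to 11.51 and naive cortex 10.09 to 11.13. Both sham values at 7 d lay below these ranges. Of the injured values, 11.65 and 11.58 lay above both ranges, 11.24 above the naive range alone, and 10.57 within the naive range. At 3 months, where 2.41 percent of all genes were called, Vamp1 was lower (−1.17 ± 0.24, adjusted p = 0.00895) and Syt7 higher (1.74 ± 0.40, adjusted p = 0.0200). Vamp1 read 14.63 and 12.9997 in sham and 12.62, 12.88, 12.38 and 12.68 in injured samples, and the 14.63 is the doubted replicate whose region score was 0.679. Syt7 read 6.73 and 5.62 in sham and 7.71, 7.82, 7.86 and 8.27 in injured samples, near or below the 90th percentile of the control probes. Without the doubted samples, where 0.121 percent of all genes passed, neither did: Vamp1 read −0.36 ± 0.20 (adjusted p = 0.671) and Syt7 2.29 ± 0.52 (adjusted p = 0.0600).

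At the other 4 times limma called 0 of 55 genes in cortex, with 11, 5, 11 and 1 genes at an unadjusted p under 0.05 at 4 h, 24 h, 14 d and 28 d, and 0.0110, 0.0219, 2.13 and 0 percent of all genes called. Of all genes, 6.82, 6.17, 19.4 and 3.18 percent were at that unadjusted p at these times. Nearest were Syt4 at 14 d (1.74 ± 0.48, adjusted p = 0.0526) and Syt12 at 24 h (−0.98 ± 0.25, adjusted p = 0.223). The Syt4 difference rests on the doubted sham replicate at 14 d, which read 8.96 where the other read 12.68 and the injured samples 12.16 to 12.78. Vamp4 at 4 h read 9.49 and 9.01 in sham cortex and 10.54, 10.03, 9.86 and 10.17 in injured cortex (0.90 ± 0.27, adjusted p = 0.321), not called. Also nearest, and not called, were Vamp3 (0.47) and Cplx2 (−0.96) at 4 h, and Syn2 (0.51) and Vamp2 (0.56) at 24 h. At 7 d they were Snap25 (−0.76) and Stx6 (−0.69), and at 14 d Stx12 (0.94) and Syt12 (0.65). At 28 d they were Stxbp5 (1.47), Stx6 (−0.56) and Syt6 (0.58), and at 3 months Vamp3 (−0.55). Both naive means of Syt6 lie below the 90th percentile of the control probes. The injured time course in cortex called 0 genes (13, or 23.6 percent, at an unadjusted p under 0.05, beside 14.7 percent of all genes), against 1.04 percent of all genes, with Syt12 (adjusted p = 0.0882), Stx7 (0.173) and Vamp3 (0.180) nearest.

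The operation without injury was compared with naive samples. In raphe 1 of 54 genes passed, Stx6 (1.31 ± 0.20, adjusted p = 0.000602), where 1.36 percent of all genes did. Its 12 sham values ran from 10.28 to 11.14 and its 4 naive values were 8.96, 9.22, 9.43 and 10.23, so the groups did not overlap. The injured values ran from 9.12 to 11.05, and the lowest is the doubted replicate at 4 h. These are values of the brightest Stx6 probe set. In raphe minus cortex it read −1.16 in naive and −0.01 in sham samples, where the dimmer second probe set read −0.55 and −0.77. Sham against naive raphe is not given here for the second probe set. Syt3 (−0.40 ± 0.14, adjusted p = 0.139) and Syn1 (0.47 ± 0.18, adjusted p = 0.179) were next and not called. Without the doubted samples 3 genes passed, beside 6.29 percent of all: Stx6, Rab33b (0.29 ± 0.09, adjusted p = 0.0414) and Syt12 (−0.36 ± 0.11, adjusted p = 0.0491). Along with these, all 3 tested blood markers fell in sham against naive raphe, their summed signal reading 32401 to 96164 against 99959 to 120334 without the doubted samples, and their part in the result was not tested. In cortex limma called 0 of 55 genes, against 0.460 percent of all genes. At an unadjusted p under 0.05 there were 6, or 10.9 percent, beside 13.5 percent of all genes. The nearest were Cplx2 (−0.65 ± 0.25, adjusted p = 0.233), Syt6 (−0.56 ± 0.23) and Syt12 (−0.37 ± 0.17). Both naive means of Syt6 lie below the 90th percentile of the control probes.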

How the data were processed

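The deposited files give 1 intensity value per probe set and array; the authors had scaled the arrays, since the 2 percent trimmed mean was 800.5 to 801.3 on each of the 244 arrays, with software not given in the sources used here. Values stayed as deposited, 32 was added and the log2 was taken. Array medians ran from 185.8 to 410.5, and the number of arrays limits the precision. A probe set was tested if it exceeded the 40th percentile on at least 4 arrays of a region. For each array type, limma 3.58.1 (R 4.3.3) fitted a mean per group, with Benjamini-Hochberg adjustment over the 3 types and a threshold of 0.05, two-sided. Symbols came from the platform annotation, and all 60 genes matched RefSeq by gene ID. Region comparisons and the difference between regions in injury use 1 fit of both regions, and the other comparisons a fit per region. Called genes, the nearest 3 where fewer than 3 passed, and the core genes are named by rule. Members and lists were chosen with earlier results of these data known. The doubted samples were chosen after seeing the data, by a region score on the wrong side of 0.5, an actin ratio of at least 4 times or a 5th percentile of at least 2 times the median of the region. Where titles and descriptions gave different times, the title was followed. The fit was tested on simulated data.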

Additional observations from a re-analysis of the deposited data

Results flagged for a closer look

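In 4 of 30 groups of 4 naive values, 1 sample lay far from the others by the 95 percent criterion of Dixon, where chance gives about 1 in 20. Syn1 in naive raphe replicate 3 read 12.77, while the other 3 read 13.81 to 13.95; the call of Syn1 as lower in raphe is of the same sign in all 4 samples. Cplx1 in naive raphe replicate 2 read 15.25 against 15.69 to 15.71 in the others, and in naive cortex replicate 4 read 15.27 against 15.03 to 15.06. Syp in naive cortex replicate 2 read 12.77 against 12.99 to 13.01.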

How the results depend on the processing

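The counts of genes called between regions stayed within 1.5 times under each planned setting that kept all samples (quantile normalization, no filter or a stricter one, a smaller or larger added constant, array weights, any probe set, the replicate block), and no called value changed sign. Uncalled values of core genes did, such as Syp between naive regions (0.007, and −0.07 under quantile normalization) and Stx1a injury in raphe (−0.11, and 0.31 with naive in place of sham). Leaving out the 2 arrays with conflicting times moved no injury count by over 1.5 times. Syt1 in naive samples lost the call under quantile normalization, no filter and both constants, and Cplx1 under quantile normalization. Injury counts moved more: 6 genes at any time in cortex under quantile normalization; with array weights 5 in raphe over the times, 4 at any time in raphe, and 4 in each time course; 2 at any time in raphe with any probe set; with naive in place of sham 2 in raphe and 1 in cortex. Without the 5 doubted samples, a setting added after seeing the data, there were 2 in raphe over the times, 7 at any time in raphe, 1 at any time in cortex, 3 in the raphe time course and 3 for sham against naive raphe. Leaving out each replicate, where a lone remaining sham sample is assumed to vary like the other groups, gave 12 to 17 genes between naive regions, 10 to 28 between sham regions and 34 to 38 between injured ones. The 10 came without raphe sham replicate 2 at 3 months, which leaves no type A sample of that group, so fewer genes were tested. In raphe there were 0 to 3 over the times (3 without injured replicate 1 at 4 h, 1 without each of 4 other samples), 0 to 6 at any time (6 without that replicate, 1 without sham replicate 2 at 3 months) and 0 to 3 in the time course (3 without that replicate). In cortex there were 0 to 2 over the times (2 without sham replicate 1 at 14 d or sham replicate 2 at 3 months, 1 without sham replicate 2 at 28 d), 1 to 12 at any time (12 without sham replicate 1 at 14 d, 7 and 1 without sham replicates 2 and 1 at 3 months) and 0 to 1 in the time course (1 without injured replicate 4 at 4 h). The difference of the regions in injury gave 0 to 1 (1 without cortex sham replicate 1 at 14 d), and sham against naive 1 to 2 in raphe (2 without sham replicate 2 at 3 months) and 0 in cortex. In naive samples Cplx1 lost its call in 6 of 8 such fits and Syt1 in 5 of 8. The causes were not tested. Equal replicate numbers did not pair the samples (the median correlation of their deviations was near 0), and the replicate block gave the same counts: 16, 27 and 36 between regions, 0 in each injury comparison over the times, 0 and 3 at any time, 0 in both time courses, and 1 and 0 for sham against naive. Signal over background limits the 14 genes whose naive means lay within the control probes in both regions.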
